A study of Homo sapiens with 2 samples.

Results

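The 8 genes LMNA, LMNB1, LMNB2, LBR, HMGB1, HMGB2, HMGA1 and HMGA2 encode nuclear lamina and chromatin proteins that are known to change in senescent cells. They are 8 of 19970 protein-coding genes on chromosomes 1 to 22 and X. The genes were chosen by name from that knowledge, with earlier results of these data also known. JUNB is a subunit of AP-1, a transcription factor made of pairs of JUN and FOS family proteins. Its binding was profiled by CUT&RUN, in which an antibody brings a nuclease to its target on chromatin and the released DNA fragments are sequenced. The cells were IMR-90, which are human lung fibroblasts. There was 1 library of untreated cells and 1 of cells treated with etoposide, a topoisomerase II poison that breaks DNA. Both used the same JUNB antibody. The dose and length of treatment are not given in the sources used here, nor whether the cells were senescent at harvest. Every peak whose summit, the base of highest signal, lay in a member gene or within 50 kb of its RefSeq span was taken: 36 of 32550 untreated peaks and 23 of 25739 etoposide peaks. A peak is a stretch where the signal passed the peak caller's threshold. The 2 lists hold no replicate, so no difference between them could be set against a spread between cultures and no test was run. All intervals below cover counting error only.

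Lamins are intermediate filament proteins that form a meshwork under the inner nuclear membrane. LMNA encodes lamins A and C, LMNB1 and LMNB2 encode the B-type lamins, and LBR encodes the lamin B receptor, an inner membrane protein that tethers heterochromatin to the lamina. HMGB1 and HMGB2 encode abundant DNA-bending proteins with HMG boxes, and HMGA1 and HMGA2 encode small AT-hook proteins that bind the minor groove. In senescent fibroblasts lamin B1 is lost, HMGB1 leaves the nucleus and is released, HMGB2 falls, and the HMGA proteins gather in heterochromatin foci. These are facts about the proteins and their levels, which a peak list does not measure.

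The sequences shown first are 250 bases before annotated starts of 4 members. LMNB1, HMGB1 and LMNA are shown because an untreated peak lay beside that start, and LBR because it held an AP-1 site. They come from RefSeq (GRCh38.p14) and are written 5′ to 3′ on the gene's strand. Capitals mark bases inside a peak in HMGB1 and the AP-1 site in LBR. The LMNB1 peak began 12 bases after the start shown, and the LMNA peak ended 272 bases before its start, so those sequences have no capitals. The LMNB1 peak also covered 5 of the 250 bases before a second LMNB1 start, which are not shown. The windows are chr13:30465937-30466186 (minus strand) for HMGB1, chr5:126776373-126776622 (plus) for LMNB1, chr1:156106466-156106715 (plus) for an internal start of LMNA, and chr1:225428822-225429071 (minus) for LBR.
HMGB1: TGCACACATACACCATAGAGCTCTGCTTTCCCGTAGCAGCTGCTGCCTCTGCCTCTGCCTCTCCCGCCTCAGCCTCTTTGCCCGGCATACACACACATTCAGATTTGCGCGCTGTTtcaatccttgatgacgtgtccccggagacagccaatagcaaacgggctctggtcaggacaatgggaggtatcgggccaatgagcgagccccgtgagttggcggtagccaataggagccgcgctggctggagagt
LMNB1: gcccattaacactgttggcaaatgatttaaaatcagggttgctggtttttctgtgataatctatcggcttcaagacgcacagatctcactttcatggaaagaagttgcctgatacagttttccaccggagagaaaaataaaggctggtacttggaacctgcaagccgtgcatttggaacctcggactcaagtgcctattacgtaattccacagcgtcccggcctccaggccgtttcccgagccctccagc
LMNA: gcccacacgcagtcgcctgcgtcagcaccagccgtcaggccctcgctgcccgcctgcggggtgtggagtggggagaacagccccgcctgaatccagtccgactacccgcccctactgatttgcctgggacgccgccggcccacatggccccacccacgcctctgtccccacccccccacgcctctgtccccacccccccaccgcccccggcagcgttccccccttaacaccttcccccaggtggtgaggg
LBR: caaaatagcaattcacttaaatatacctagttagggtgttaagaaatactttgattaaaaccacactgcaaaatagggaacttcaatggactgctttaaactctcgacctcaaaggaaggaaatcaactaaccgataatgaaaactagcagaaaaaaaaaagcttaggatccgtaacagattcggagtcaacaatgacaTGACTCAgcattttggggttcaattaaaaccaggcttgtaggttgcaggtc

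All 8 genes had at least 1 peak in each library. In the genome as a whole, windows of this kind held an untreated peak at 72% of protein-coding genes and an etoposide peak at 62.6%. At 7 of the 8 genes at least 1 place was bound in both libraries, and LMNB1 was the exception. Such a place was found at 51.1% of all genes, a share that counts genes without any peak. Among genes with a peak in both libraries, as all 8 members are, it was found at 10196 of 11695. A place is called shared when peaks of both lists have at least 1 bp in common. More untreated than etoposide peaks were listed at 6 members (LMNA, LMNB2, HMGB1, HMGB2, HMGA1 and HMGA2). LMNB1 and LBR had the same number in each library and 0 members had fewer. Among genes with a peak in both libraries, 54.8% had more untreated and 15.1% fewer untreated peaks, so a surplus of untreated peaks was the common case over the genome as well. With each list limited to its 10000 strongest peaks there were 10 untreated and 12 etoposide peaks near the members. An untreated peak then lay near 6 members and an etoposide peak near 8. Equal list lengths take away any difference in total number by construction. Shares over all genes are not given for this limit, so these counts show no reversal particular to the members. Within 10 kb there were 21 and 11 peaks, at the same 5 members in both libraries (LMNA, LMNB1, HMGB1, HMGA1 and HMGA2). The share of all genes with a peak within 10 kb is not given here, so these counts have no background beside them.

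Of the 36 untreated peaks near these genes, 18 were shared, 50% (exact 95% interval 32.9% to 67.1%). Among all untreated peaks within 50 kb of a protein-coding gene the share was 49.2%. Of the 23 etoposide peaks, 16 were shared, 69.6% (47.1% to 86.8%), against 65.6% of all etoposide peaks near genes. Both shares lay near the background of their list. Untreated-only peaks stood near 7 members (59.7% of all genes) and etoposide-only peaks near 4 (36.2% of all genes), which were LMNB1, HMGB1, HMGA1 and HMGA2. These percentages count genes without any peak. Of the 14386 genes with an untreated peak, 11919 had an untreated-only one. Of the 12503 genes with an etoposide peak, 7228 had an etoposide-only one.

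**Figure D1:**
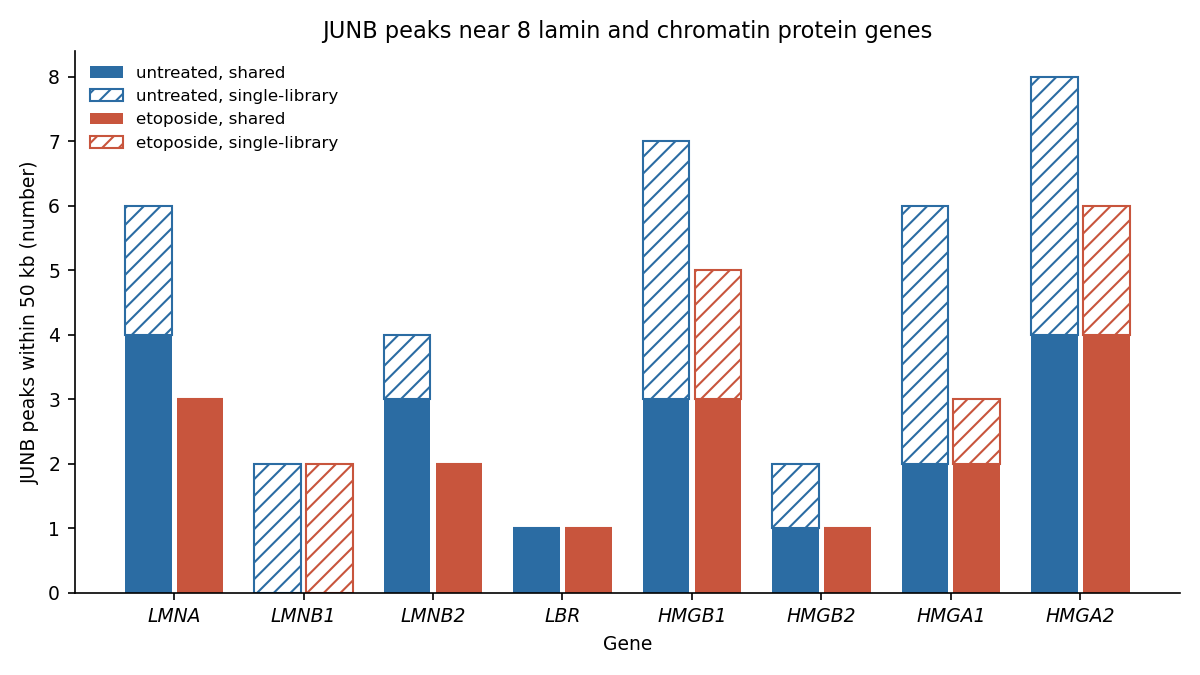
Number of JUNB peaks with a summit within 50 kb of each gene, in the untreated (blue) and etoposide (red) library, with 1 library each. Solid parts are shared places and hatched parts are peaks of 1 library alone. HMGA2 had the most peaks, 8 and 6, and LMNB1 is the gene with no solid part.

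Gene length sets the size of the window, so peaks were also counted per 100 kb. HMGA1, a gene of 9.36 kb, had the densest window, with 5.49 untreated and 2.74 etoposide peaks per 100 kb. LMNA had 3.81 and 1.91, HMGA2 had 3.31 and 2.48, and LBR had the fewest, 0.785 in each library. Over all protein-coding genes the median was 0.991 untreated peaks per 100 kb (quartiles 0 and 2.28) and 0.805 etoposide peaks (0 and 1.66). The untreated density at HMGA1 exceeded that of 98.8% of genes, and the etoposide density exceeded that of 92.4%. Genes without any peak are counted in these percentages and in the medians and quartiles over all genes. HMGA1 was the nearest protein-coding gene to 2 of the 6 untreated and 2 of the 3 etoposide peaks in its window. The medians of the 8 members were 2.89 and 1.73. LBR was the only member under the median of all genes in both libraries, and LMNB1, at 1.25 in each, lay above it.

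**Figure D2:**
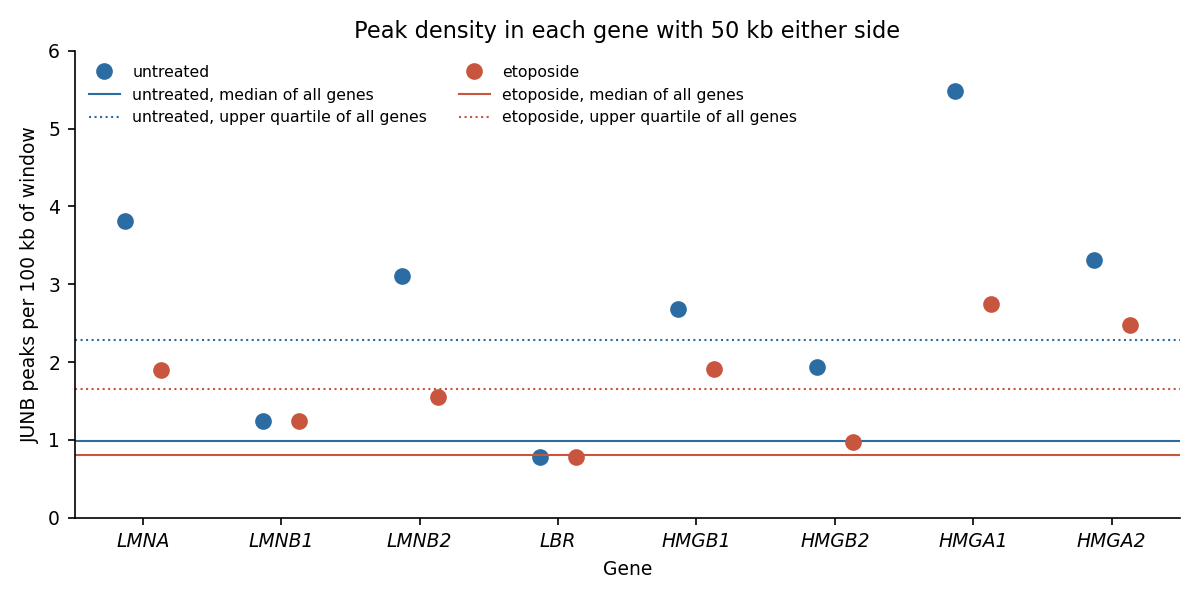
JUNB peaks per 100 kb of window (gene span with 50 kb on either side) for each member in the untreated (blue) and etoposide (red) library. Lines give the median (solid) and upper quartile (dotted) over 19970 protein-coding genes, and HMGA1 stands highest in both libraries.

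The strength of a peak is given here as the number of fragments stacked at its summit, recovered from the deposited fold and p of the peak, with its exact Poisson 95% interval. Whole lists had medians of 15 (untreated) and 13 fragments (etoposide), and the etoposide library held an estimated 0.836 times the fragments of the untreated one. Shared untreated peaks near the members ranged from 9 to 59 fragments with a median of 27.5, and untreated-only peaks from 8 to 29 with a median of 15. Shared etoposide peaks ranged from 10 to 39 (median 18.5), and the 7 etoposide-only peaks from 7 to 19 (median 9). Whole lists showed the same order, with medians of 19 and 12 for shared and single untreated peaks and 14 and 10 for etoposide. Scaled to the etoposide depth, all 18 untreated-only member peaks would still pass the lowest p of the etoposide list, as would 99.4% of all untreated-only peaks. That calculation leaves out counting scatter and the caller's minimum width. Nearly every peak passes it, so it does not separate the members from other peaks or show that their status is stable to depth.

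**Figure D3:**
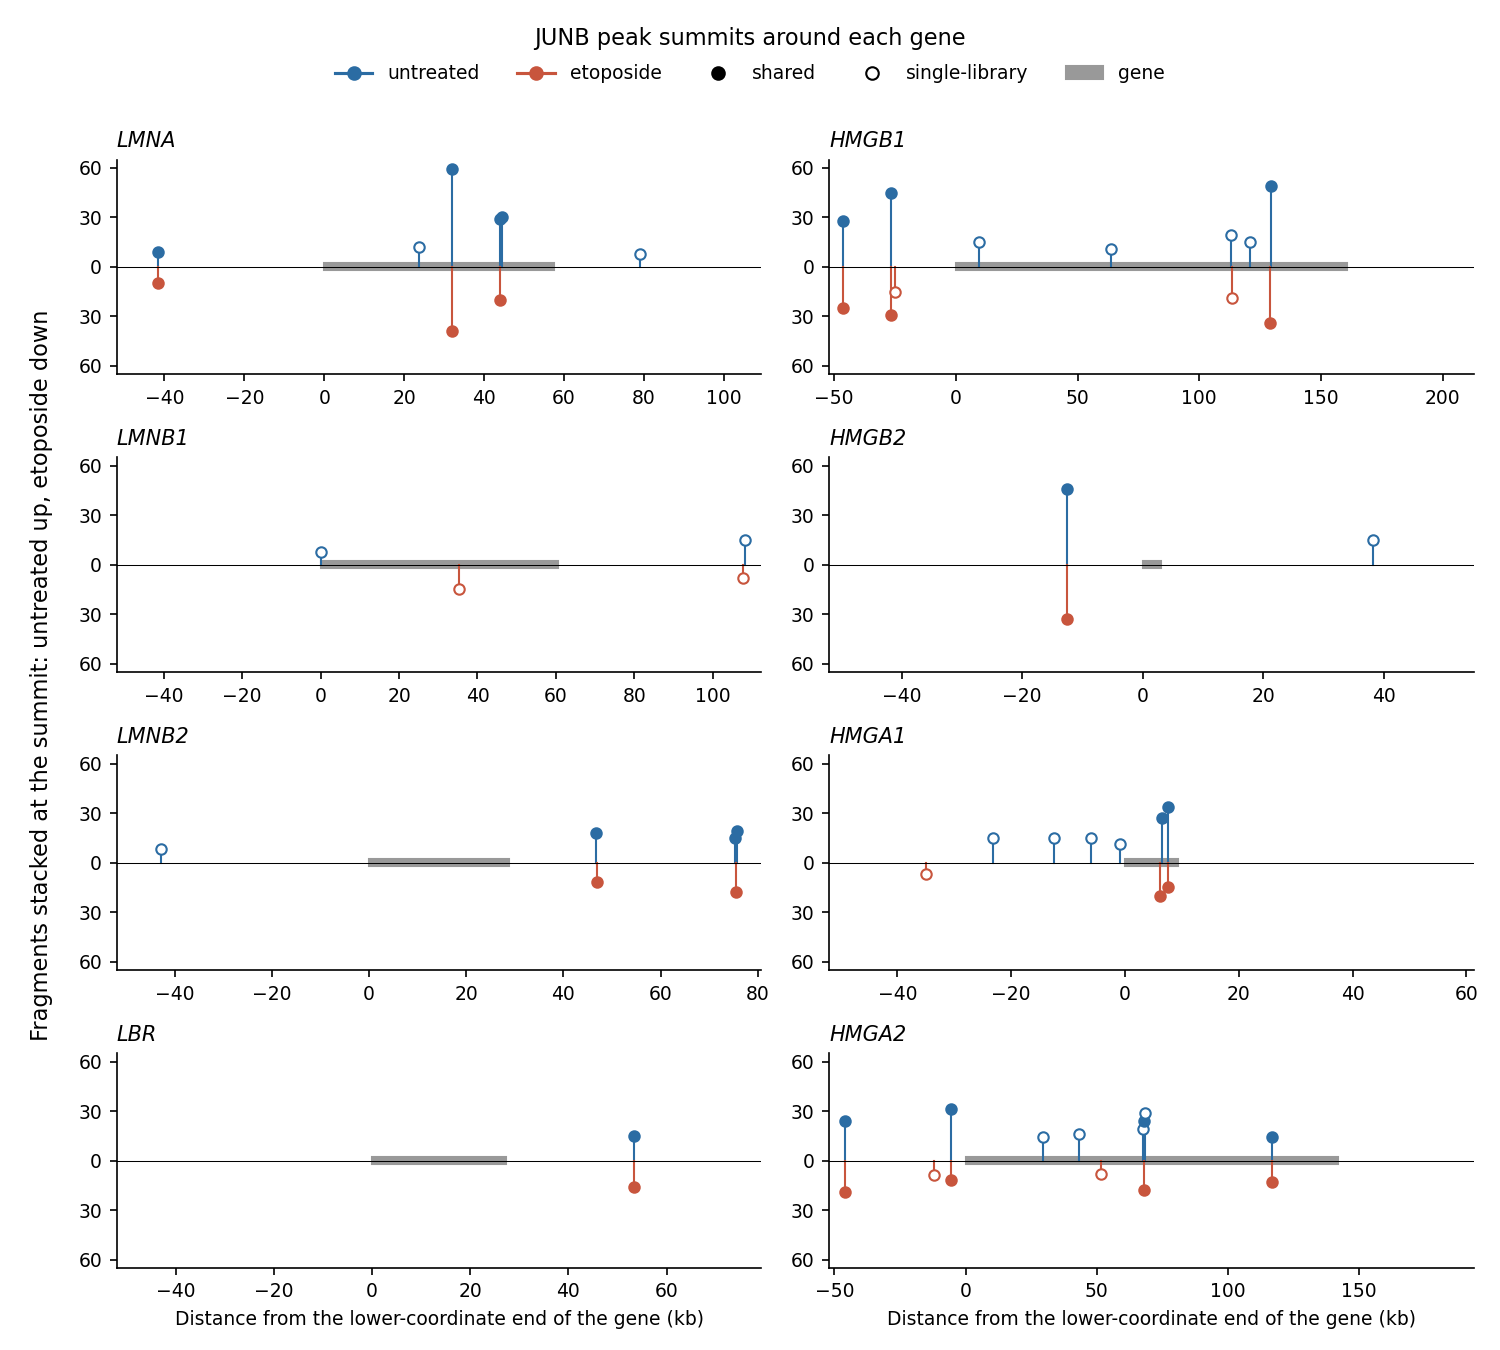
Summits around each gene, by distance in kb from the gene's lower-coordinate end (grey bar, gene span). Stem height is the number of fragments at the summit, untreated upward in blue and etoposide downward in red. Filled circles are shared places and open circles are peaks of 1 library. The tallest stems, in LMNA, HMGB1 and beside HMGB2, are filled in both directions.

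LMNA (gene ID 4000, chromosome 1, 156082573 to 156140081) carried the strongest peak near any of these genes. It lay inside the gene at chr1:156113981-156114679 in the untreated list, with 59 fragments (44.9 to 76.1), and at chr1:156114286-156114668 in the etoposide list, with 39 (27.7 to 53.3). The summits were 16 bp apart, 7732 bp (untreated) and 7748 bp (etoposide) after the internal start whose upstream sequence is printed above. By -log10 q it ranked 213 in each list, at 0.654% and 0.828% of the way down. A second shared place inside LMNA had a pair of untreated peaks with 29 and 30 fragments under 1 etoposide peak with 20. A shared peak with 9 and 10 fragments lay 41.5 kb below the gene, inside UBQLN4.

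The remaining LMNA peaks were in the untreated list alone. One, at chr1:156106243-156106444 with 12 fragments (6.20 to 21.0), had its summit 396 bp before the internal start. The other had 8 fragments and lay inside SEMA4A, 21.6 kb above LMNA. Both were weak, at 91.2% and 85.1% of the way down the untreated list.

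LMNB1 (gene ID 4001, chromosome 5, 126776623 to 126837020) had 2 peaks in each library and no shared place. An untreated peak with 8 fragments (3.45 to 15.8) at chr5:126776635-126776890 lay just inside the gene, from 12 bp after the first of 2 annotated starts. Its summit was 132 bp after that start and 381 bp before the second one. The peak was among the weakest listed, at rank 30902 of 32550. The etoposide library had no peak there and instead listed 1 inside the gene at chr5:126811783-126812083, with 15 fragments (8.40 to 24.7). That peak had rank 7989 of 25739 and a summit 35.3 kb after the first start. The other pair lay in the neighbouring gene MARCHF3, 47.3 and 47.7 kb from LMNB1. There the etoposide peak (8 fragments) and the untreated peak (15 fragments) were 228 bp apart without touching, so the lack of a shared place rests in part on the overlap rule.

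LMNB2 (gene ID 84823, chromosome 19, 2428166 to 2456959) had no peak inside the gene or within 10 kb of it. A shared peak 18.0 kb above it had 18 untreated and 12 etoposide fragments, and lay 1.16 kb from GADD45B, a stress-induced gene. A second shared place, 46.6 kb from LMNB2 and nearest to GNG7, had untreated peaks of 15 and 19 fragments under 1 etoposide peak of 18. A weak untreated-only peak of 8 fragments lay inside TMPRSS9. Each of these peaks had another protein-coding gene nearer than LMNB2.

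LBR (gene ID 3930, chromosome 1, 225401502 to 225428821) had 1 peak in each list, and it was the same place. It lay 26.0 kb above the gene, at chr1:225454515-225454907 in the untreated list with 15 fragments (8.40 to 24.7) and at chr1:225454713-225455166 in the etoposide list with 16 (9.15 to 26.0). LBR was the nearest protein-coding gene. The summits were 14 bp apart. LBR is on the minus strand, so the place is upstream of its start.

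HMGB1 (gene ID 3146, chromosome 13, 30456704 to 30617597) had 3 shared places, and they were among the strongest of these peaks. Inside the gene, the peak at chr13:30585824-30586394 had 49 untreated fragments (36.3 to 64.8) and its counterpart at chr13:30585817-30586109 had 34 (23.6 to 47.5), with ranks 311 and 364 and summits 8 bp apart. Below the gene, a place 26.4 kb away had 45 and 29 fragments and another 46.4 kb away had 28 and 25. Both were nearer to UBE2L5.

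An untreated-only peak with 15 fragments (8.40 to 24.7) at chr13:30466071-30466546 lay at the HMGB1 start printed above. Its summit was 268 bp before that start, and it covered 116 of the 250 bases shown. The nearest etoposide peak was over 34 kb away. Another 3 untreated-only peaks inside the span had 11, 19 and 15 fragments. The one with 19, at chr13:30569776-30570024, stood 127 bp from an etoposide-only peak at chr13:30570152-30570370 that also had 19. The other etoposide-only peak, with 15 fragments, lay 624 bp from the untreated peak of the shared place with 45.

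HMGB2 (gene ID 3148, chromosome 4, 173331376 to 173334358) had no peak within 10 kb. A strong shared peak lay 12.5 kb below it, inside GALNT7, with 46 untreated fragments (33.7 to 61.4) at chr4:173318491-173319177 and 33 etoposide fragments (22.7 to 46.3) at chr4:173318724-173318953. It ranked 366 and 680 and the summits were 8 bp apart. An untreated-only peak with 15 fragments lay 35.3 kb above HMGB2, nearest to SAP30.

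HMGA1 (gene ID 3159, chromosome 6, 34236873 to 34246231) had 2 shared places inside the gene. The first, at chr6:34242990-34243463 in the untreated list, had 27 fragments (17.8 to 39.3) against 20 (12.2 to 30.9) with etoposide. The second, at chr6:34244250-34244649, had 34 (23.6 to 47.5) against 15 (8.40 to 24.7), and ranked 4529 in the untreated and 21324 in the etoposide list.

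Upstream of HMGA1 there was a run of 4 untreated-only peaks. Their summits were 23.2, 12.5, 6.03 and 0.906 kb before the gene and had 15, 15, 15 and 11 fragments. The etoposide library had none of these, and its only peak on that side was a weak one of 7 fragments, 34.9 kb from the gene. A second protein-coding gene, LOC124901225, was the nearest gene to each of them.

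HMGA2 (gene ID 8091, chromosome 12, 65824460 to 65966291) had the most peaks, 8 untreated and 6 etoposide, and HMGA2 was the nearest protein-coding gene to all of them. The strongest in the untreated list was a shared place 5.46 kb below the gene, at chr12:65818888-65819379, with 31 untreated fragments (21.1 to 44.0) and 12 etoposide fragments (6.20 to 21.0). A shared place 45.9 kb below had 24 and 19 fragments and was the strongest of the gene with etoposide. Inside the gene, 3 untreated peaks with 19, 24 and 29 fragments stood within chr12:65891982-65893060, and 1 etoposide peak with 18 fragments overlapped the middle one. The outer 2 count as untreated-only although they were 156 and 212 bp from that etoposide peak. A further shared place inside the gene had 14 and 13 fragments. The library-specific peaks elsewhere had 14 and 16 fragments in the untreated list and 9 and 8 in the etoposide list.

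Near misses of this kind occurred at LMNB1, HMGB1 and HMGA2. Of the 18 untreated-only member peaks, 4 were within 1 kb of an etoposide peak, 22.2% (6.41% to 47.6%), where 16.0% of all untreated-only peaks were. Of the 7 etoposide-only peaks 3 were within 1 kb of an untreated peak, 42.9% (9.90% to 81.6%), against 17.5% in the whole list.

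The RefSeq set of starts used here held annotated starts for 6 of the 8 genes. HMGB2 and HMGA2 had no entry in it, so every count of member starts leaves them out. An untreated summit lay within 1 kb of a start at 4 of these 6 (LMNA, LMNB1, HMGB1 and HMGA1), and an etoposide summit at 0 of 6. Over 15811 protein-coding genes with a start in the table, 17.5% had an untreated and 6.61% an etoposide summit that near. The 6 members with a start had 1 to 3 each, and the mean over genes was 1.40. A gene with more starts has more places where a summit can be counted. These 4 peaks had 8 to 15 fragments and ranks from 18541 to 31614 of 32550, so each was in the weaker part of the list. A lower share of etoposide peaks at gene boundaries was already known for the whole list, and the 4 genes are not independent evidence of it.

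The letters of the starts were searched for AP-1 sites. TGACTCA, counted on both strands, is the classical AP-1 site. It occurred in the 250 bases before 1 of the 12 member starts, that of LBR, 51 bases upstream. In all 35116 RefSeq windows of the same length 4.20% held it. The wider form TGANTCA, which includes TGACTCA, was in that same LBR window and in 6.57% of all windows, and TGACGTCA was in 0 of 12 and 1.65%. No peak of either library lay within 25 kb of the LBR start, so the site was not in a listed peak. A match of letters is not evidence of binding, and peaks themselves could not be searched because no genome was used here.

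The fragment counts of shared places can be set side by side. The 18 untreated peaks with a counterpart (2 etoposide peaks each served for 2 of them) had etoposide-to-untreated ratios from 0.387 to 1.20, with a median of 0.729. The median over all 16610 shared untreated peaks was 0.778 (quartiles 0.625 and 1), under the depth ratio of 0.836 and close to its other estimate, 0.782. Etoposide was higher in 3 of the 18, 1 each at LMNA, LMNB2 and LBR, by 1 to 3 fragments. The LMNB2 one, with the ratio of 1.20, set 15 untreated fragments against an etoposide peak of 18 with its summit 267 bp away. That etoposide peak also served for the untreated peak of 19, with its summit 28 bp away, at a ratio of 0.947. Of the 18 counting intervals 2 lay wholly below 0.836 and 0 wholly above it. They were for the place 5.46 kb below HMGA2, at 0.387 (0.181 to 0.775), and the second place inside HMGA1, at 0.441 (0.223 to 0.832). Over all shared peaks 3.57% had an interval below it. With the other estimate of relative depth, 0.782 from the lowest backgrounds alone, the HMGA1 interval was no longer wholly below, which left HMGA2 alone, against 2.17% of all shared peaks.

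These ratios have the untreated count as their denominator, and only places listed in both libraries enter, so counting scatter and the floor of the lists by themselves give lower ratios at higher untreated counts. Ratios are therefore set beside those of shared peaks with a like count. With at least 25 untreated fragments, the median ratio was 0.651 over the whole list and 0.678 over the 10 member peaks, and 11.2% of the whole class had intervals below 0.836. The strong places of LMNA, HMGB1 and HMGB2, with ratios of 0.661, 0.694 and 0.717, belong to this class and lay near its median. With 15 to 24 fragments the medians were 0.762 over the whole list and 0.870 over 6 member peaks. HMGA1 and HMGA2, both in the class of at least 25, held the 2 lowest values, which with 1 library per condition cannot be told apart from variation between cultures.

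**Figure D4:**
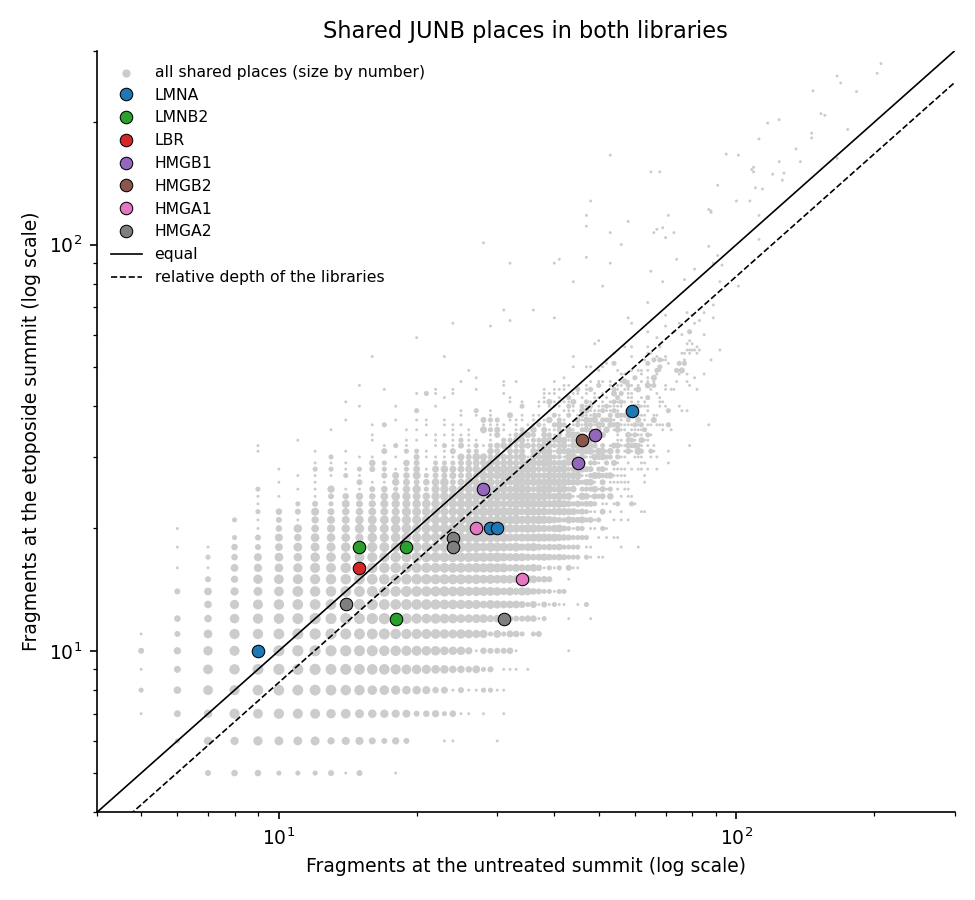
Fragments at the summit in the untreated (horizontal) and etoposide (vertical) library for every shared untreated peak, on log axes. Grey dots are all shared peaks, sized by number, and coloured dots are those near each member. Most coloured dots lie near or below the dashed line of the relative depth, 0.836. The lowest relative to it are 1 of HMGA2 (31 and 12 fragments) and 1 of HMGA1 (34 and 15).

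A further 3 gene lists were counted in the same way, to be read against the 72% and 62.6% of all genes with a peak. Peaks lay within 50 kb of 18 of 19 other nuclear envelope genes in the untreated library and of 14 with etoposide. SYNE2 (11 and 10 peaks), SYNE1 (12 and 7) and the nuclear pore gene NUP153 (6 and 5) had the most. SYNE2 and SYNE1 encode nesprins, which link the nucleus to the cytoskeleton. Both are long, at 465 and 516 kb, with 1.95 untreated peaks per 100 kb each, and 1.77 and 1.14 with etoposide. The upper quartiles of all genes were 2.28 and 1.66. Of 12 other HMG and HMG-box genes, 8 and 6 had a peak. Among them were TOX (11 and 9), a gene of 314 kb, and SSRP1 (5 and 1), a subunit of the histone chaperone FACT. Of 24 heterochromatin genes, 21 and 18 had a peak. ASF1A (5 and 4) and CABIN1 (5 and 2) act with the HIRA histone chaperone, and EZH2 (3 and 3) is the histone H3 lysine 27 methyltransferase. The shares of untreated peaks that were shared were 46.2%, 45.2% and 44.9%, and those of etoposide peaks 75%, 73.7% and 58.8%, where all peaks near genes gave 49.2% and 65.6%. No difference from these backgrounds was tested.

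Peaks near marker genes could not serve to check the cell label. All 10 fibroblast markers had a peak in both libraries, but 4 of 4 markers of other cells had an untreated and 2 of 4 an etoposide peak, and PTPRC, a leukocyte gene, had 3 and 8. Binding near a gene is not expression. The summits nearest the limit of the window were those near LMNB1 at 47.7 kb (untreated, 15 fragments) and 47.3 kb (etoposide, 8). The first ones outside it were at 53.6 kb from LMNA (untreated, 12 fragments) and 59.1 kb from HMGA2 (etoposide, 13).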

How the data were processed

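JUNB CUT&RUN peaks were analysed in 1 untreated and 1 etoposide library of IMR-90 cells, grouped by the treatment label. Bowtie2 and MACS2, and the builds hg38 and mm10, are named in the submitters' processing notes, with no settings. The contig names are those of GRCh38, and positions are given on that build, counted from 1. The authors deposited 1 narrowPeak list per library. Its deposited columns are a fold ratio of summit signal over local background, significance at the summit as -log10 p and as -log10 q, a score equal to the whole part of 10 times -log10 q (within 1 unit in 100% of peaks), and the summit offset from the peak start. No control library was used here.

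Peaks on chromosomes 1 to 22 and X were kept, 32550 of 33491 untreated and 25739 of 26590 etoposide. Whole fragment numbers k at the summit and local backgrounds b were solved from fold = (k + 1)/(b + 1) and the Poisson upper tail at mean b. This matched the deposited -log10 p within 0.001 in 100% of peaks of both lists, and the step was tested on simulated data. Relative depth (0.836) is the ratio of lowest backgrounds divided by that of smallest widths (189 and 202 bp), an assumption about the caller. Sequencing depth itself is unknown. Genes, starts and sequences came from RefSeq tables of GRCh38.p14. Exon and intron annotation was not used here.

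Shares have exact Clopper-Pearson 95% intervals, and ratios of 2 fragment counts have intervals turned from them. Both counts are maxima at summits, so the intervals are approximate. No p-value was computed. All 8 members and the lists were chosen with earlier results of these data known. Every member is described, and of each other list the 3 genes with the most peaks are named, except 1 that is not reported here. The planned search for AP-1 sites under summits was replaced by a search of promoter windows. Python 3.11.15 with pandas 2.3.3 and SciPy 1.17.1 was used.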

Additional observations from a re-analysis of the deposited data

How the results depend on the processing

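Within 10 kb in place of 50 kb, the members had 21 untreated and 11 etoposide peaks, at 5 members in each library. Within 100 kb there were 60 and 35 peaks. Shares over all genes are not given for these windows, so neither count can be set against a background. With each list limited to its 10000 strongest peaks the order turned, with 10 untreated and 12 etoposide peaks. The shared share was then 70.0% of the 10 untreated and 58.3% of the 12 etoposide peaks. With overlap of at least 50% of both peaks it was 30.6% of 36 untreated and 47.8% of 23 etoposide peaks. Shares over all peaks are not given for these settings, so the member shares have no background beside them. The higher untreated number thus rests on peaks below the first 10000, and equal list lengths take away any difference in total number by construction. The other settings tried, a -log10 q of at least 5 and summits at most 200 bp apart, left each number within 1.5 times its value and each shared share inside its 95% interval. Scaling the untreated counts to the etoposide depth left 36 of 36 member peaks listed at either estimate of relative depth (0.836, or 0.782, an alternative chosen after seeing the data), but nearly every untreated peak passes that bar, so it shows nothing about stability. With 0.782 the member pairs whose ratio interval lay below the relative depth fell from 2 to 1. No paired analysis was possible because each condition had 1 library. Single peaks of few fragments have wide counting intervals (3.45 to 15.8 for 8 fragments), which limits what a pair of weak peaks can show.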
